A study of Homo sapiens with 6 samples.

Results

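The genes described here make, package, mark or move the histones of human chromatin, or methylate its DNA. They were taken by symbol from a transcript table of IMR32 cells, an established human neuroblastoma line. A row was included when its symbol starts with KDM, KMT2, SETD, HDAC, SMARC, ARID, DNMT, EZH, H2AF or H3F, or with HIST, CHD or TET followed by a digit, or is SUZ12 or EED. This gave 97 of the 11351 rows in the table. Some family members have no row, among them HDAC2, KDM5B, KDM6B, KMT2D, SETDB1, SMARCA5, ARID1A, ARID1B, CHD5, H2AFX and H3F3B. Class counts and sums cover only the listed genes. The study asked which transcripts respond to sAKZ692, a small molecule that its design text calls an NRF2 activator and that is known here only by its code name. The labels name no engineered allele in these repository-purchased cells, which received 20 µM sAKZ692 or its solvent DMSO for 24 h, with 3 libraries in each group. Levels are in TPM, a relative unit that accounts for transcript length, so that different genes can be set side by side. Within a group, values are given in the order of replicates 1, 2 and 3.

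Nucleosomes hold DNA around an octamer of core histones. Bulk core histones come from replication-dependent genes, clustered and without introns, whose messages are made in S phase and mostly end in a stem-loop instead of a poly(A) tail. Variants such as H2A.Z and H3.3 come from ordinary polyadenylated messages made throughout the cell cycle. Histone tails are then methylated by KMT2 and SETD enzymes and by Polycomb repressive complex 2 (PRC2), demethylated by KDM enzymes and deacetylated by HDACs, while SWI/SNF, ISWI and CHD complexes slide or evict nucleosomes with ATP. In the developing nervous system, the exit of progenitors from the cell cycle is known to go with exchanges of subunits in SWI/SNF complexes.

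The neuroblastoma label held in the markers. MYCN, the amplified oncogene of this line, was at 1347 to 1539 TPM over the 6 libraries. Of 13 adrenergic neuroblastoma markers, 9 were tested, and only CHGB rose (log2 fold change 1.02, SE 0.11, limma adjusted p = 0.0011), with 3 higher after quantile normalization or without replicate 3 of sAKZ692. Of 13 mesenchymal or Schwann-like markers, 4 were tested and 0 passed limma's threshold, with 0 at an unadjusted p under 0.05, while 2 were lower without replicate 3 of sAKZ692 and 1 without its replicate 2. Their summed level was 932 to 971 TPM in DMSO and 826, 772 and 1615 TPM in sAKZ692, and most of it was VIM, at 566, 520.2 and 1334 TPM in the treated libraries. Replicate 3 of sAKZ692 stood apart in general: the log2 values of replicates 1 and 2 correlated at r = 0.992, and replicate 3 correlated with them at 0.971 and 0.972, each across tested genes as a description. Calls that appear or disappear without it are given beside the genes concerned.

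With a mean level of 1 TPM or more, 85 of the 97 genes entered a limma test on log2(TPM + 1), which was fitted to all 9137 such genes of the table. At an adjusted p below 0.05, 18 were higher and 6 lower with sAKZ692. That is 28.2% of the tested chromatin genes, where 32.6% of all tested genes passed (24.1% higher and 8.5% lower), so as a family they were called about as often as the table at large. Their median log2 fold change was 0.09, against 0.14 over all tested genes. The groups did not overlap for 36 of the 85, and 50.5% of all tested genes had groups that did not overlap. Within this ordinary total, single genes and paralogs moved in different directions. SMARCA2, HIST3H2A and SMARCD3 rose by more than 1 on the log2 scale, as did HIST2H4B, which entered the test only through its treated libraries, and EZH2, H2AFZ, EED, H2AFV, DNMT1 and SMARCA4 fell. The calls of 9 of the 18 higher genes and of 5 of the 6 lower genes were kept under every alternative that tested them, each library left out in turn included. Leaving out 1 DMSO library gave 10 to 12 higher and 5 lower genes, and leaving out replicate 3 of sAKZ692 gave 20 and 19. The split also depended on scaling: 14 were higher and 13 lower after median-ratio scaling, and 9 and 8 after quantile normalization. Higher genes thus made up 75% of the calls as deposited, and 51.9% and 52.9% after these scalings. Median-ratio scaling moved the median log2 fold change of all tested genes from 0.14 to 0.0024, and quantile normalization moved it to -0.03.

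**Figure D1:**
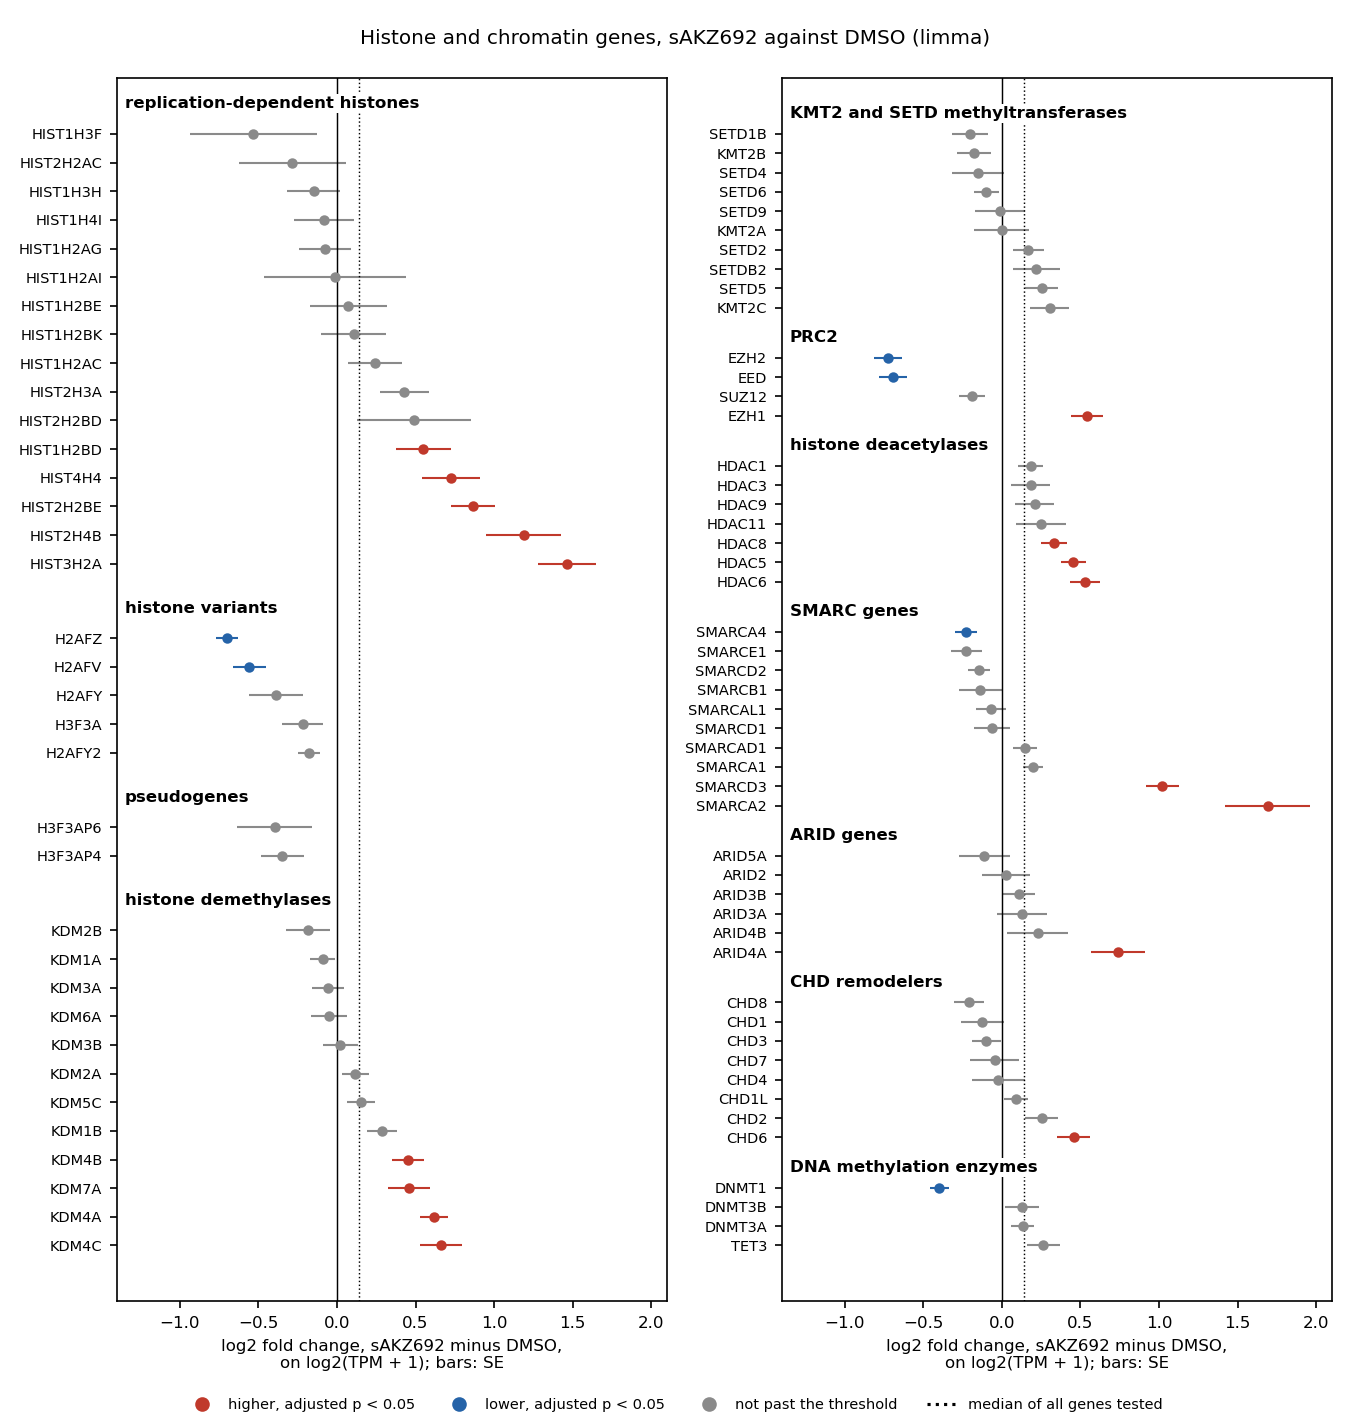
Log2 fold change of each tested histone and chromatin gene, sAKZ692 minus DMSO on log2(TPM + 1), with its standard error as a bar and 3 libraries per group. Genes are grouped by class, colours give the limma call, the dotted line is the median of all tested genes (0.14), and KDM5D is not drawn. SMARCA2 and HIST3H2A lie farthest to the right, and EZH2, H2AFZ and EED farthest to the left among the called genes.

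Among the 12 untested genes, with means between 0.262 and 0.899 TPM, were 9 replication-dependent histone genes (HIST1H1B, HIST1H1D, HIST1H2AK, HIST1H2BJ, HIST1H2BL, HIST3H2BB, HIST2H3D, HIST1H4E and HIST1H4H). The others were the H3.3-like retrogene H3F3C, the pseudogene SETD8P1 and ARID5B. HIST3H2BB was at 0.563, 0.528 and 0.446 TPM in DMSO and 1.03, 1.21 and 1.62 TPM in sAKZ692, and ARID5B at 0.141, 0.177 and 0.121 TPM in DMSO and 0.669, 0.372 and 0.399 TPM in sAKZ692. All treated libraries lay above all DMSO libraries in both genes, and without the filter on low values both passed (adjusted p = 0.0129 and 0.0345 in limma). The linker histone gene HIST1H1D went the other way, at 0.223, 0.673 and 0.329 TPM in DMSO and 0.113, 0.115 and 0.118 TPM in sAKZ692, without overlap, and did not pass without the filter (limma adjusted p = 0.0915).

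The replication-dependent histone transcripts were scarce, and a few of them rose. Of 25 such genes 16 were tested, and limma called HIST3H2A, HIST2H2BE, HIST1H2BD, HIST2H4B and HIST4H4 higher and 0 lower, with 0 lower at an unadjusted p under 0.05. The share called, 31.2%, was near the 32.6% of all tested genes, of which 24.1% were higher and 8.5% lower. One tested row, HIST2H2BD, is annotated as a transcribed pseudogene but is counted in this class throughout. HIST2H4B and HIST4H4 reached the mean of 1 TPM only through their treated libraries, as did HIST1H2BE and HIST2H3A, which did not pass, so the class count is given as a description only. The genes that rose encode an H2A, H2B proteins and H4 proteins. Each has an annotated transcript with the stem-loop that the stem-loop binding protein SLBP recognises. In HIST1H2BD 1 of 2 annotated transcripts holds it and in HIST4H4 3 of 6, and a gene's TPM does not tell its transcripts apart. The stem-loop is shown for each gene and, for comparison, for HIST1H3H and HIST1H2AG, which did not pass. The sequences were read from GENCODE release 29 transcripts. The genes lie, on GRCh38, at chr1:228456979-228457873 for HIST3H2A (minus strand), chr1:149854045-149861210 for HIST2H4B (minus strand), chr1:149884459-149886652 for HIST2H2BE (minus strand), chr12:14767999-14771131 for HIST4H4 (minus strand) and chr6:26158146-26171349 for HIST1H2BD (plus strand). HIST1H3H lies at chr6:27810064-27811300 (plus strand) and HIST1H2AG at chr6:27133042-27135291 (plus strand). Capitals mark the 16 bases of the stem-loop, with 5 bases on each side.
HIST3H2A: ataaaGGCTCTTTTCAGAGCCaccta
HIST2H4B: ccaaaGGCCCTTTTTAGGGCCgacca
HIST2H2BE: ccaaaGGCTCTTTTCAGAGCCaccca
HIST4H4: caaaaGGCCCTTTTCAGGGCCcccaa
HIST1H2BD: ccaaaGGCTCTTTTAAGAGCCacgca
HIST1H3H: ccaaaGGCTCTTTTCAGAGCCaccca
HIST1H2AG: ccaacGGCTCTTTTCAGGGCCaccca

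HIST3H2A, an H2A gene outside the large chromosome 6 cluster, was at 4.91, 3.45 and 4.42 TPM in DMSO and 12.03, 11.4 and 17.5 TPM in sAKZ692. Every treated library lay above every DMSO library, and the mean rose 3.202-fold (log2 fold change 1.46, SE 0.19, limma adjusted p = 0.0018). HIST2H2BE, an H2B gene, was at 1.104, 0.974 and 1.200 TPM in DMSO and 2.596, 2.86 and 2.98 TPM in sAKZ692 (log2 fold change 0.87, SE 0.14, limma adjusted p = 0.00438). HIST2H2BE levels were tight within each group and did not overlap between them. The H4 genes HIST2H4B and HIST4H4 were at 0.788, 0.519 and 0.291 TPM in DMSO and 1.53, 2.91 and 3.19 TPM in sAKZ692, and at 0.887, 0.448 and 0.767 TPM in DMSO and 1.91, 2.12 and 1.401 TPM in sAKZ692. Both H4 genes had DMSO means below 1 TPM, so that they had to differ to be tested. Their log2 fold changes were 1.19 (SE 0.24, limma adjusted p = 0.00924) and 0.72 (SE 0.19, 0.0223). HIST1H2BD, another H2B gene, was at 3.601, 2.58 and 3.36 TPM in DMSO and 6.22, 5.21 and 4.04 TPM in sAKZ692, without overlap but with an adjusted p near the threshold (log2 fold change 0.55, SE 0.18, limma adjusted p = 0.0474). The calls of HIST4H4 and HIST1H2BD were lost without any 1 library except replicate 3 of sAKZ692 (adjusted p up to 0.0845 and 0.156) and after quantile normalization (0.158 and 0.586), and that of HIST1H2BD also after median-ratio scaling (0.101).

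**Figure D2:**
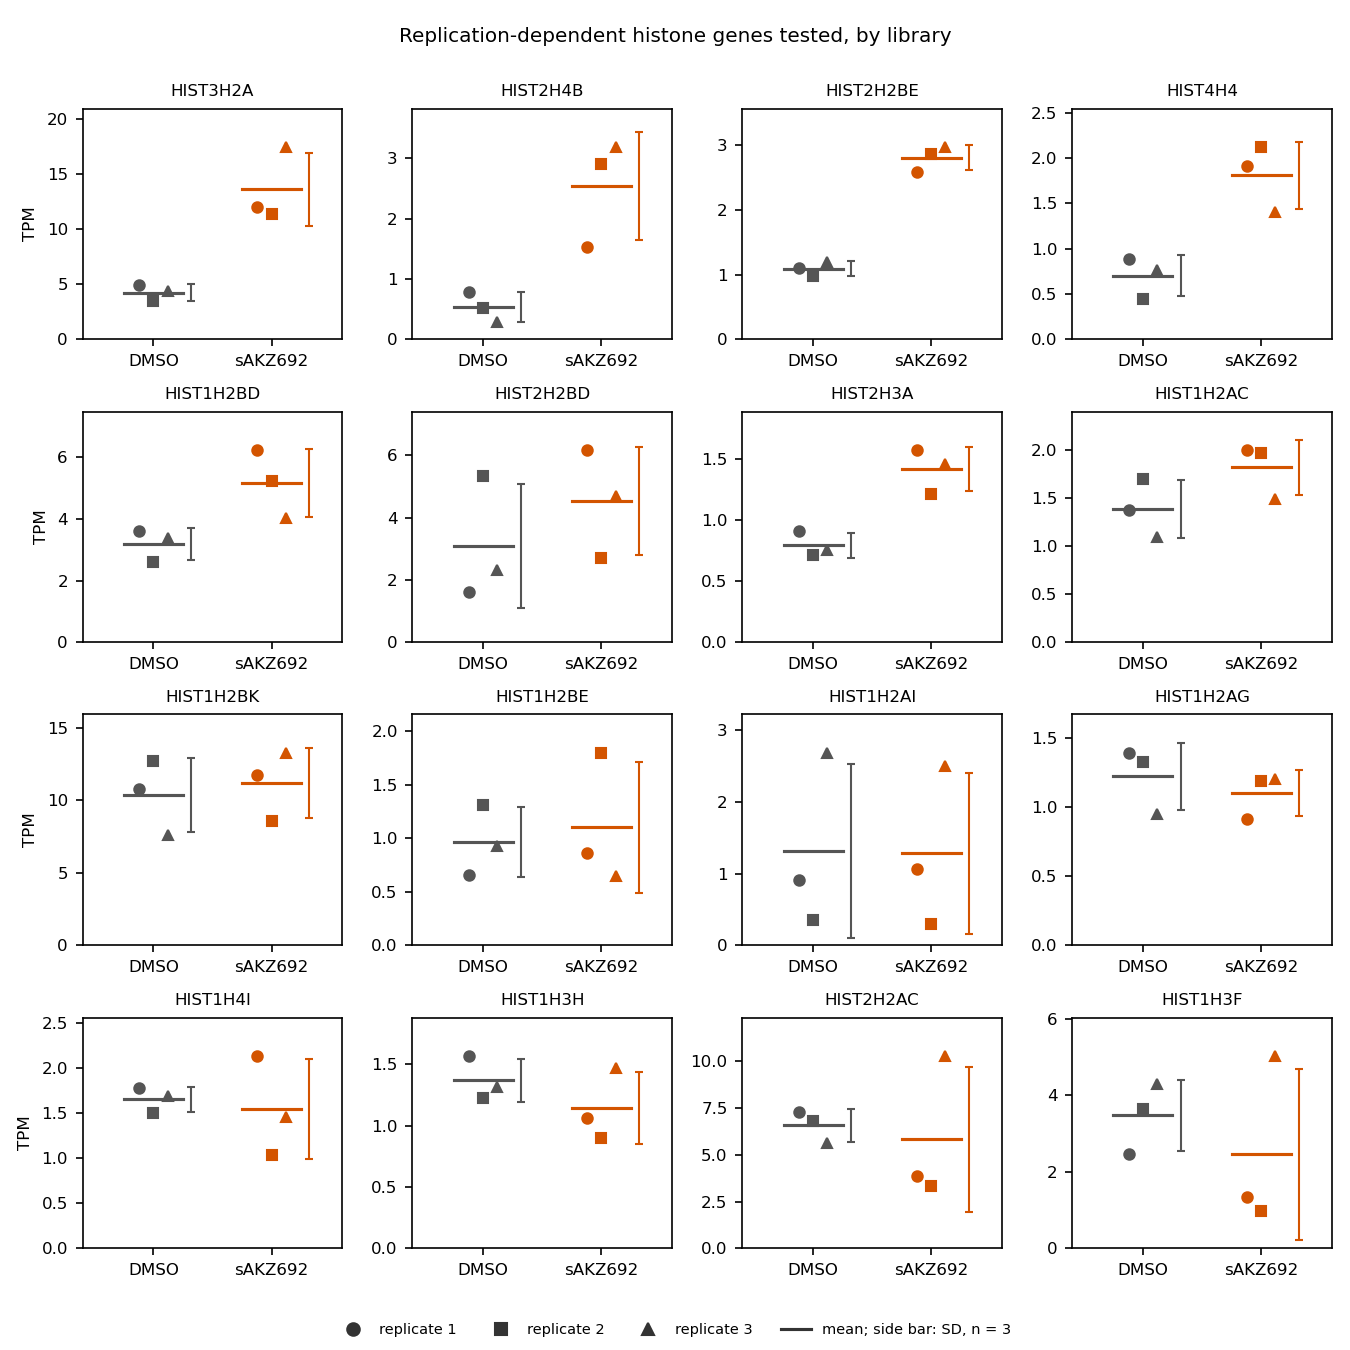
TPM of the 16 tested replication-dependent histone genes in each library, DMSO in grey and sAKZ692 in orange, with 1 symbol per replicate, the group mean as a line and the SD (n = 3) as a side bar. HIST3H2A reaches 11.4 to 17.5 TPM in sAKZ692 against 3.45 to 4.91 TPM in DMSO, while HIST2H2AC and HIST1H3F are low in treated replicates 1 and 2 and high in replicate 3.

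The other 11 tested histone genes had log2 fold changes between -0.53 and 0.49, the highest being that of the pseudogene HIST2H2BD. HIST1H2BK was at 10.8, 12.7 and 7.63 TPM in DMSO and 11.7, 8.57 and 13.2 TPM in sAKZ692, with overlapping groups. HIST2H2AC and HIST1H3F split by treated library. HIST2H2AC was at 7.303, 6.81 and 5.61 TPM in DMSO and 3.88, 3.32 and 10.3 TPM in sAKZ692, and HIST1H3F at 2.48, 3.63 and 4.303 TPM in DMSO and 1.35, 0.984 and 5.02 TPM in sAKZ692. Treated replicates 1 and 2 lay below the DMSO libraries and replicate 3 above them, and without replicate 3 both genes were lower (log2 fold changes of -0.72 and -1.03, limma adjusted p = 0.0031 and 0.00294). Summed over the 25 genes, replication-dependent histone transcripts came to 47.6, 49.5 and 44.4 TPM in DMSO and 62.7, 53.1 and 80.3 TPM in sAKZ692. On this deposited scale the treated libraries were all above the DMSO libraries, with replicate 3 farthest. Dividing by the median-ratio factors, 0.961 for DMSO replicate 2 and 1.066 for sAKZ692 replicate 2, would reverse the order of these 2 libraries. HIST3H2A alone rose from a mean of 4.26 TPM to 13.6 TPM within these sums. The summed H4 genes were at 3.65 ± 0.465 and 6.81 ± 0.335 TPM, and the summed H3 genes at 6.41 ± 0.290 and 5.84 ± 2.95 TPM (SD, n = 3). The H4 sum holds HIST2H4B (means of 0.533 and 2.54 TPM) and HIST4H4 (0.701 and 1.81 TPM). Both were tested only because of their treated libraries, so the sum does not describe H4 genes in general. HIST1H4I, also an H4 gene, had means of 1.65 and 1.54 TPM and did not pass.

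The annotated ends of these messages differ. In GENCODE release 29, 17 of the 25 genes had the stem-loop in a transcript, and in 14 of them a transcript ran on for at least 100 bases past it. All 5 genes that rose had the stem-loop in an annotated transcript, 4 of them with at least 100 bases beyond it. These were 1729 bases in HIST2H2BE, up to 1510 in HIST4H4, up to 1314 in HIST2H4B and 390 in HIST3H2A. HIST1H2BD had 39 bases beyond it, and its other transcript, of 789 bases, held no stem-loop. Of the 11 that did not pass, 8 had the stem-loop and 7 ran on as far. Those without it, HIST1H2BK, HIST2H2AC and HIST1H3F, have 1 annotated transcript each, of 381, 390 and 411 bases. Such short annotations may not reach the end of the message, so these counts describe the annotation and not the messages themselves. Whether poly(A) RNA was selected before sequencing is not given in the sources used here, and it decides which histone messages are seen at all, so these levels describe the captured transcripts only. Histone paralogs also share sequence. Every window of 50 bases, the stated read length, in HIST2H3A also occurs in HIST2H3C, and 97.2% of those in HIST2H4B occur in HIST2H4A, so the levels of HIST2H3A and HIST2H4B are uncertain. The shared part was 74.1% for HIST1H2BK, 62.3% for HIST1H2AI and 30.5% for HIST2H2AC, whose levels carry the same limit. For HIST3H2A, HIST4H4 and HIST1H2BD the shared part is at most 5.36%, and for HIST2H2BE 8.11%.

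Genes of histone supply had more lower than higher calls, although many did not pass. SLBP, the binding protein of the stem-loops shown above, fell from 152 ± 2.59 TPM to 81.5 ± 11.5 TPM (SD, n = 3, log2 fold change -0.90, SE 0.11, limma adjusted p = 0.00143). CSTF2, a cleavage factor, fell from 47.3 ± 1.26 TPM to 33.5 ± 1.400 TPM. Of 11 genes of histone message processing, 2 were lower and 0 higher, with a median log2 fold change of -0.19. After either scaling 6 were lower, and 4 without replicate 3 of sAKZ692. Of 23 tested histone chaperones, 2 were higher and 12 lower, with a median of -0.37. CHAF1A, the large subunit of the chromatin assembly factor that deposits histones at replication forks, was at 81.6, 85.97 and 82.9 TPM in DMSO and 38.5, 43.2 and 32.5 TPM in sAKZ692 (log2 fold change -1.12, SE 0.11, limma adjusted p = 0.000763). SUPT16H, a subunit of the FACT chaperone, fell from 208 ± 3.38 TPM to 141 ± 4.68 TPM, and MCM2, a helicase subunit that also binds H3 and H4, fell from 158 ± 4.12 TPM to 89.4 ± 7.47 TPM (SD, n = 3). Without any 1 DMSO library 7 or 8 chaperones were lower, and 0 were higher after median-ratio scaling. All 19 tested genes of a DNA replication list fell, with a median of -0.91, and the part of that fall in the changes of histone and chromatin genes was not tested. In bulk RNA, fewer cells in S phase and less RNA per cell cannot be told apart.

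The histone variants, far more abundant than the replication-dependent transcripts, were lower or did not pass. H2AFZ and H2AFV encode H2A.Z.1 and H2A.Z.2, the forms of the variant that marks promoters. H2AFZ was at 728, 757 and 777 TPM in DMSO and 454, 496 and 440.1 TPM in sAKZ692, and every treated library lay well below every DMSO library (log2 fold change -0.70, SE 0.07, limma adjusted p = 0.000894). H2AFV was at 194, 196 and 205 TPM in DMSO and 144, 148 and 114 TPM in sAKZ692, again without overlap (log2 fold change -0.56, SE 0.11, limma adjusted p = 0.00719). The DMSO mean was thus 1.63 times the treated mean for H2AFZ and 1.47 times for H2AFV. Both calls were kept under every alternative. The promoter of H2AFZ is shown because H2AFZ and the PRC2 gene EZH2 both fell and both carry CCAAT boxes. It spans chr4:99950226-99950525 on GRCh38.p14 (RefSeq, minus strand, from 250 bases before to 50 after the gene's start), and capitals mark matches to CCAAT on either strand (3) and to TTTGAA (1).
H2AFZ: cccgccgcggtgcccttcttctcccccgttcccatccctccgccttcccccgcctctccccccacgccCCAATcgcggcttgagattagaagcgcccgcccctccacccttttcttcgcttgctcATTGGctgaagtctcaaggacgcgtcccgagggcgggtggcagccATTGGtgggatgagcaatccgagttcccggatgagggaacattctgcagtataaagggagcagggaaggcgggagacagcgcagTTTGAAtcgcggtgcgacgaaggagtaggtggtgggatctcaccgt

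H2AFY and H2AFY2 encode macroH2A forms, which carry a large extra domain and are known for transcriptional repression. H2AFY was at 333, 344 and 322 TPM in DMSO and 213, 223 and 345 TPM in sAKZ692, so that treated replicates 1 and 2 lay below DMSO and replicate 3 beside its highest library. H3F3A, one of the H3.3 genes and the most abundant gene of the family, was at 1390.1, 1391 and 1423 TPM in DMSO and 1049, 1112 and 1497 TPM in sAKZ692, with replicates 1 and 2 again below DMSO and replicate 3 above it. Neither passed (limma adjusted p = 0.118 and 0.231). H2AFY2 was at 151, 154 and 154 TPM in DMSO and 126, 135 and 144 TPM in sAKZ692, below DMSO in all treated libraries but not past the threshold (limma adjusted p = 0.0826). Median-ratio scaling made H2AFY2 a lower gene (limma adjusted p = 0.0127). Of the 5 tested variants, 0 were higher and 2 lower, and all 5 were lower when replicate 3 of sAKZ692 was left out. The processed pseudogene H3F3AP4 was listed at 414, 429 and 329 TPM in DMSO and 300.1, 266 and 356 TPM in sAKZ692. It did not pass, and was called lower without replicate 3 of sAKZ692 (limma adjusted p = 0.0859 and 0.00688) and after median-ratio scaling (0.0274). All of its 50-base windows occur in H3F3A, so that the table's division of reads between the gene and its copy is uncertain. H3F3AP6, another copy, was at 3.64 ± 0.945 and 2.57 ± 1.06 TPM (SD, n = 3) and did not pass either, though it was called lower after quantile normalization (limma adjusted p = 0.0484).

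PRC2 writes the repressive mark H3K27me3 through EZH2 or its paralog EZH1, which need EED and SUZ12. These catalytic paralogs moved in opposite directions. EZH2, the form known for proliferating cells, was at 92.7, 97.8 and 95.2 TPM in DMSO and 50.9, 58.7 and 62.6 TPM in sAKZ692 (log2 fold change -0.73, SE 0.09, limma adjusted p = 0.00168). EZH1, the form known for resting and differentiated cells, was at 19.8, 19.5 and 24.4 TPM in DMSO and 30.9, 31.3 and 31.3 TPM in sAKZ692 (log2 fold change 0.54, SE 0.10, limma adjusted p = 0.00732). Neither gene's groups overlapped. The ratio of EZH2 to EZH1 was 4.68, 5.004 and 3.898 with DMSO and 1.65, 1.88 and 2.00 with sAKZ692, so EZH2 stayed the more abundant form in every library.

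EED, the subunit that reads the mark and stimulates the enzyme, fell with EZH2, from 33.9, 32.03 and 29.5 TPM to 19.8, 19.8 and 18.2 TPM (log2 fold change -0.69, SE 0.09, limma adjusted p = 0.0018). SUZ12, the scaffold, was at 37.2, 39.8 and 36.6 TPM in DMSO and 32.4, 35.95 and 30.98 TPM in sAKZ692. Its groups did not overlap, yet it missed the threshold (limma adjusted p = 0.122), and median-ratio scaling (0.018) and quantile normalization (0.0377) each made it a lower gene. The calls of EZH1, EZH2 and EED were kept under every alternative. Of 5 tested genes that associate with PRC2, only PHF1 was called, at 36.6 ± 2.54 and 46.2 ± 3.76 TPM (SD, n = 3), and this call was lost without any 1 DMSO library and after either scaling.

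**Figure D3:**
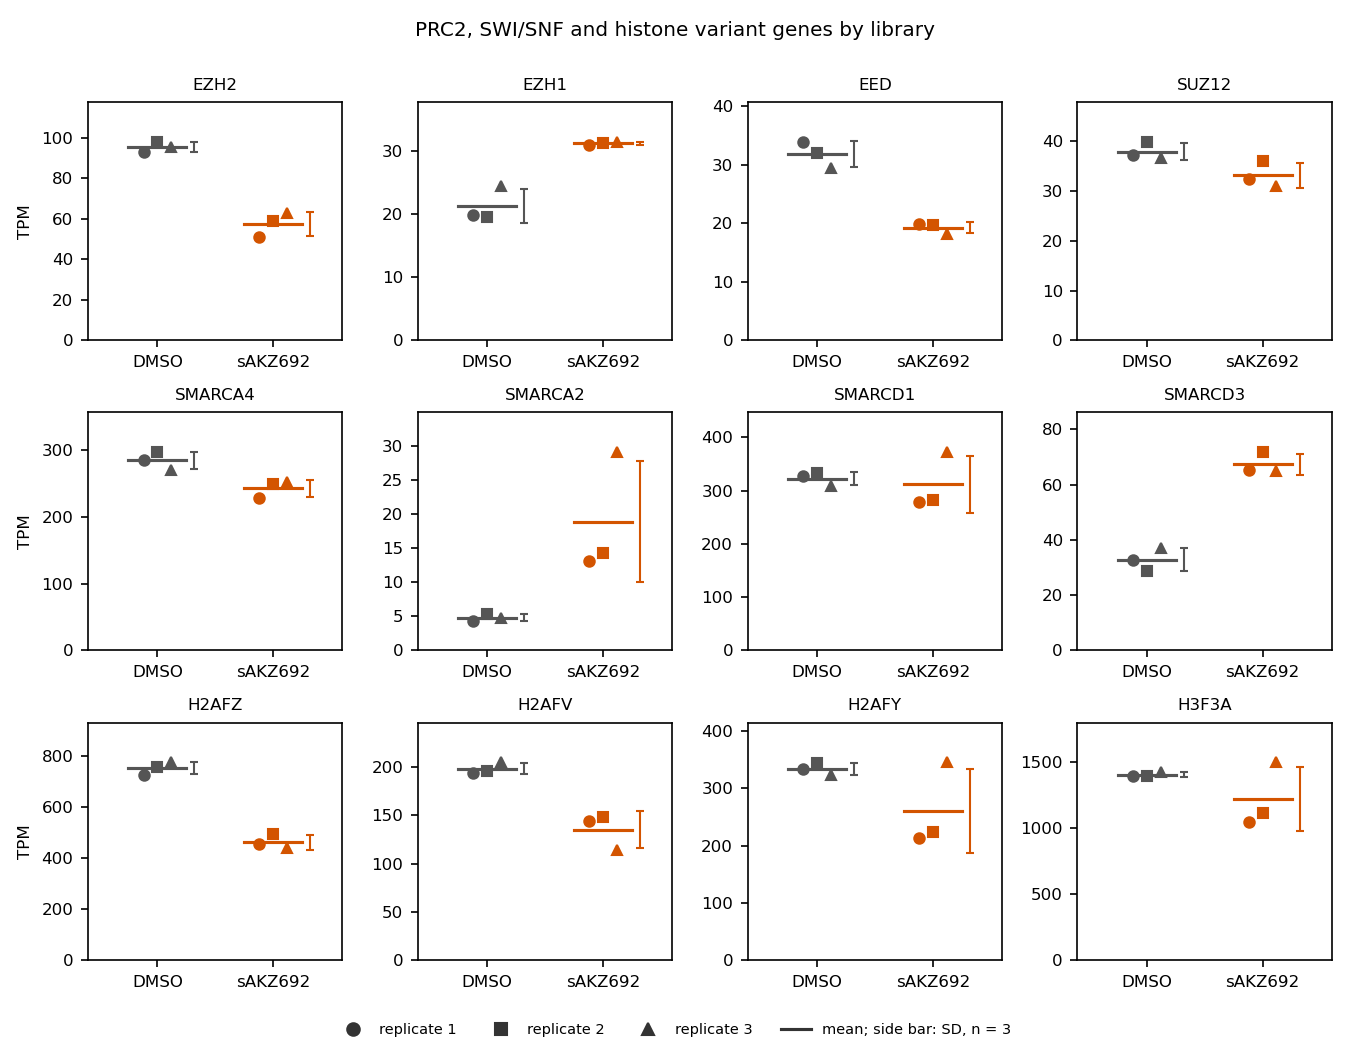
TPM of PRC2, SWI/SNF and histone variant genes in each library, on linear axes from 0, DMSO in grey and sAKZ692 in orange, with 1 symbol per replicate, the group mean as a line and the SD (n = 3) as a side bar. EZH2 falls to 50.9 to 62.6 TPM while EZH1 rises to 30.9 to 31.3 TPM, SMARCA2 and SMARCD3 rise, and for SMARCD1, H2AFY and H3F3A treated replicate 3 lies apart from treated replicates 1 and 2, at or above the DMSO libraries.

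The promoters of the PRC2 paralogs are shown because the genes moved in opposite directions. They span chr7:148884242-148884541 for EZH2 and chr17:42744991-42745290 for EZH1 on GRCh38.p14 (RefSeq, both on the minus strand, from 250 bases before to 50 after the start). Capitals mark matches on either strand to the E2F motif (TTTGGCGC or TTTCGCGC), the CCAAT box, the CHR element of cell-cycle genes (TTTGAA) and TGACNNNGC, the core of the antioxidant response element bound by NRF2.
EZH2: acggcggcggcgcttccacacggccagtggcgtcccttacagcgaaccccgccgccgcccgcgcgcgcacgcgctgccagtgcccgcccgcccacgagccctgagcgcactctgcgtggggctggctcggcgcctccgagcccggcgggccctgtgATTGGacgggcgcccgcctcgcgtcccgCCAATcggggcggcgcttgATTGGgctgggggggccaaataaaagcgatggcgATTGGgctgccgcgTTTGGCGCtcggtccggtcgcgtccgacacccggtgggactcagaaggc
EZH1: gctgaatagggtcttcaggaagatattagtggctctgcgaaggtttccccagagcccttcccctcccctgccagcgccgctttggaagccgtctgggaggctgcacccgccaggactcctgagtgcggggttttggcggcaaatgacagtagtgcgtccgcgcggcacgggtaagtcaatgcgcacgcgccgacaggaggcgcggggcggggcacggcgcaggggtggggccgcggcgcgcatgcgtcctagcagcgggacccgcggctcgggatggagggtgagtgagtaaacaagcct
The EZH2 window held 1 E2F match and 4 CCAAT matches, and the EZH1 window held 0 matches to these motifs.

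Of the 4 genes of DNA methylation and its removal, DNMT1 was lower and the others did not pass. DNMT1, which copies methylation onto newly replicated DNA, was at 118, 111 and 111 TPM in DMSO and 84.9, 86.2 and 85.7 TPM in sAKZ692, with no overlap (log2 fold change -0.40, SE 0.06, limma adjusted p = 0.00396). DNMT3A and DNMT3B, which set methylation de novo, were at 77.00, 74.04 and 69.6 TPM in DMSO and 78.8, 78.3 and 85.3 TPM in sAKZ692, and at 17.6, 18.2 and 15.2 TPM in DMSO and 17.2, 18.2 and 20.7 TPM in sAKZ692. Neither passed (limma adjusted p = 0.194 and 0.395). The level of DNMT1 was 1.54 ± 0.0488 times that of DNMT3A with DMSO and 1.06 ± 0.0505 times with sAKZ692 (SD, n = 3). TET3, the one measured enzyme of the TET family, which oxidises methylcytosine, was at 14.9 ± 1.55 and 18.04 ± 1.17 TPM (SD, n = 3; limma adjusted p = 0.0941). The DNMT1 promoter is shown as the other window of a lower gene with an E2F match. It spans chr19:10194904-10195203 on GRCh38.p14 (RefSeq, minus strand), with the match in capitals, and held 0 matches to the other 3 motifs.
DNMT1: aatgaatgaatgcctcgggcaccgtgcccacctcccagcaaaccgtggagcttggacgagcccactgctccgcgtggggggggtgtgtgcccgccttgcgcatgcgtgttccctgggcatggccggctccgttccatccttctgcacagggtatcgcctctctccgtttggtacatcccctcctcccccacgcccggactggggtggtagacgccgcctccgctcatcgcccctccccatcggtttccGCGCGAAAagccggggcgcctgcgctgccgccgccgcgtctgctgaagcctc
Among 12 tested partners of DNA methylation, 2 were higher and 0 lower (1 higher without any 1 DMSO library, and 4 higher and 3 lower without replicate 3 of sAKZ692), and the larger rise was that of SHMT2, a mitochondrial enzyme of one-carbon supply, from 239 ± 1.62 TPM to 368 ± 43.5 TPM (SD, n = 3; log2 fold change 0.62, SE 0.09, limma adjusted p = 0.00281). HELLS, a remodeler needed for DNA methylation at repeats, fell from 29.1 ± 1.51 TPM to 16.6 ± 1.58 TPM (SD, n = 3; log2 fold change -0.78, SE 0.10, limma adjusted p = 0.0017).

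Of the 13 histone demethylases, 5 were higher and 0 lower. All 3 measured members of the KDM4 group, which removes methyl groups from H3K9 and H3K36, were among those higher. The higher share was 38.5%, against 24.1% of all tested genes. It was 23.1% against 15.0% after median-ratio scaling, and 7.69% against 11.7% after quantile normalization. KDM4A was at 23.4, 21.6 and 21.1 TPM in DMSO and 36.95, 31.9 and 34.3 TPM in sAKZ692 (log2 fold change 0.62, SE 0.09, limma adjusted p = 0.0027). KDM4C was at 4.51, 3.92 and 4.36 TPM in DMSO and 7.19, 8.495 and 6.39 TPM in sAKZ692 (log2 fold change 0.66, SE 0.13, limma adjusted p = 0.00949), and KDM4B at 16.5, 16.98 and 15.8 TPM in DMSO and 21.6, 21.3 and 25.7 TPM in sAKZ692 (log2 fold change 0.45, SE 0.10, limma adjusted p = 0.0132). No treated library of these 3 genes overlapped with DMSO. KDM7A, which acts on H3K9 and H3K27, rose from 5.35 ± 0.461 TPM to 7.76 ± 1.102 TPM (SD, n = 3), and the Y-linked KDM5D, which acts on H3K4, passed with an adjusted p of 0.0338 in limma. Only the call of KDM4A was kept under every alternative. That of KDM4B did not hold when DMSO replicate 1 or 3 was left out (adjusted p up to 0.0555). Those of KDM4B, KDM4C, KDM7A and KDM5D were lost after quantile normalization (adjusted p = 0.0877, 0.135, 0.56 and 0.783), and those of KDM7A and KDM5D also after median-ratio scaling and without any 1 library except replicate 3 of sAKZ692 (up to 0.12 and 0.113). In GENCODE, 38.7% of the 50-base windows of KDM4A also occur in the transcript AL451062.3, which adds uncertainty to its level.

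The other 8 demethylases had log2 fold changes between -0.18 and 0.29 and did not pass. KDM1A (LSD1), which removes methyl groups from H3K4 within the CoREST complex, was the most abundant, at 262, 278 and 265 TPM in DMSO and 238, 239 and 281 TPM in sAKZ692. Its treated replicates 1 and 2 lay below DMSO and replicate 3 above. The same held for KDM2B, an H3K36 demethylase that brings a Polycomb complex to CpG islands, at 54.3, 55.3 and 56.8 TPM in DMSO and 46.4, 40.3 and 61.5 TPM in sAKZ692. Without replicate 3 of sAKZ692 both were lower (limma adjusted p = 0.016 and 0.00459). KDM6A, an H3K27 demethylase, was at 9.62, 8.54 and 8.76 TPM in DMSO and 9.29, 7.73 and 8.91 TPM in sAKZ692, with overlapping groups. KDM1B was at 21.2, 21.8 and 18.4 TPM in DMSO and 24.6, 24.3 and 26.6 TPM in sAKZ692, without overlap, and narrowly missed the threshold (limma adjusted p = 0.0526). KDM2A, KDM3A, KDM3B and KDM5C completed the class.

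None of the 10 KMT2 and SETD genes passed limma's threshold, and 2 had an unadjusted p under 0.05. KMT2A, KMT2B and KMT2C, the large H3K4 methyltransferases, had group means, DMSO before sAKZ692, of 11.3 ± 0.974 and 11.4 ± 2.68 TPM, of 25.3 ± 0.368 and 22.4 ± 2.91 TPM and of 11.5 ± 1.54 and 14.4 ± 1.26 TPM (SD, n = 3). SETD2, which writes H3K36me3, was at 16.3 ± 1.15 and 18.5 ± 1.27 TPM, and SETD5, the most abundant of the class, at 65.6 ± 7.65 and 78.2 ± 6.39 TPM. Log2 fold changes over the class ran from -0.20 for SETD1B, a subunit of a COMPASS complex, to 0.30 for KMT2C. SETD1B was called lower after both scalings (limma adjusted p = 0.044 and 0.0249), and KMT2B without replicate 3 of sAKZ692 (0.0417). SETDB2, SETD4, SETD6 and SETD9 stayed within log2 fold changes of -0.15 and 0.22. Among 20 other lysine and arginine methyltransferase genes and their partners, 0 were higher and 4 lower. The smallest adjusted p was that of WDR5, the shared core subunit of the KMT2 complexes, which fell from 63.5 ± 2.495 TPM to 47.4 ± 2.55 TPM (SD, n = 3; log2 fold change -0.41, SE 0.07, limma adjusted p = 0.00601). Leaving out replicate 3 of sAKZ692 made this 1 higher and 8 lower, and leaving out replicate 2 of sAKZ692 or any 1 DMSO library left 1 or 2 lower. Of 12 histone acetyltransferase genes, 0 passed limma's threshold and 1 had an unadjusted p under 0.05. KAT7, the most abundant, was at 98.2 ± 4.92 and 96.7 ± 15.1 TPM (SD, n = 3). Without replicate 3, 1 was higher and 3 lower.

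Of the 7 deacetylases, 3 were called higher and 0 lower. That was 42.9% higher, where 24.1% of all tested genes were higher. All 7 log2 fold changes were above 0 on the deposited and median-ratio scales, while HDAC11 lay at -0.08 after quantile normalization. The median of all tested genes was itself 0.14 as deposited, and HDAC1 and HDAC3 lay at 0.03 after median-ratio scaling. HDAC5, a class IIa enzyme that shuttles between nucleus and cytoplasm and is known from neurons and muscle, was at 137, 137 and 119 TPM in DMSO and 185, 173 and 181 TPM in sAKZ692 (log2 fold change 0.45, SE 0.08, limma adjusted p = 0.0052). HDAC6, the mainly cytoplasmic class IIb enzyme that deacetylates tubulin, was at 47.9, 47.6 and 51.3 TPM in DMSO and 64.7, 81.2 and 68.1 TPM in sAKZ692 (log2 fold change 0.53, SE 0.10, limma adjusted p = 0.00666). HDAC8, a class I enzyme that acts on cohesin, was at 17.9, 16.7 and 16.3 TPM in DMSO and 21.9, 21.02 and 21.9 TPM in sAKZ692 (log2 fold change 0.33, SE 0.08, limma adjusted p = 0.0206). In none of these did the groups overlap. HDAC8 lost its call without any 1 DMSO library and without replicate 1 of sAKZ692 (adjusted p up to 0.0801), and after either scaling (0.111 and 0.198), while HDAC5 and HDAC6 kept theirs under every alternative.

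HDAC1 and HDAC3, catalytic subunits of the nuclear class I corepressor complexes, did not pass, and HDAC2 has no row in the table. HDAC1 was at 46.1, 43.6 and 40.2 TPM in DMSO and 49.1, 51.1 and 47.4 TPM in sAKZ692, with treated libraries all above DMSO, and was called higher without replicate 3 of sAKZ692 (limma adjusted p = 0.0439). HDAC3 was at 76.2, 79.6 and 78.4 TPM in DMSO and 76.9, 83.6 and 109 TPM in sAKZ692, with replicate 3 of sAKZ692 apart from the rest. HDAC9 and HDAC11 were at 18.7 ± 1.31 and 21.9 ± 3.46 TPM and at 6.71 ± 1.57 and 8.04 ± 0.328 TPM (SD, n = 3). Summed over the 7 genes, deacetylase transcripts were at 344 ± 13.2 TPM in DMSO and 442 ± 17.3 TPM in sAKZ692. Of 14 corepressor partners, only SAP18 was called, and it fell from 254 ± 12.2 TPM to 197 ± 11.5 TPM (SD, n = 3). Among 6 sirtuins, the NAD-dependent deacetylases, SIRT2 was called and rose from 26.8 ± 2.68 TPM to 38.96 ± 4.26 TPM (SD, n = 3).

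The largest rise of all these genes was that of SMARCA2 (BRM), one of the alternative ATPases of SWI/SNF. SMARCA2 was at 4.28, 5.35 and 4.81 TPM in DMSO and 13.2, 14.3 and 29.1 TPM in sAKZ692. All treated libraries lay above all DMSO libraries, and replicate 3 was the highest by a wide margin (log2 fold change 1.69, SE 0.27, limma adjusted p = 0.00411). Without replicate 3 the log2 fold change was 1.35 (limma adjusted p = 5.06e-05). SMARCA4 (BRG1), the other ATPase, was at 285, 297 and 271 TPM in DMSO and 228, 248 and 252 TPM in sAKZ692 (log2 fold change -0.23, SE 0.07, limma adjusted p = 0.0425). That small fall was lost without any 1 library except replicate 3 of sAKZ692 (adjusted p up to 0.154) and after quantile normalization (0.171). SMARCA4 was 66.7, 55.5 and 56.3 times as abundant as SMARCA2 with DMSO and 17.3, 17.3 and 8.66 times with sAKZ692, so it remained the main ATPase transcript.

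The BAF60 subunits link the complex to transcription factors, and of these only SMARCD3 was called. SMARCD3 (BAF60C), known for its role in muscle and neural differentiation, was at 32.9, 28.6 and 36.9 TPM in DMSO and 65.4, 71.7 and 64.9 TPM in sAKZ692 (log2 fold change 1.02, SE 0.10, limma adjusted p = 0.000894), and its call was kept under every alternative. SMARCD1 (BAF60A) was at 327, 333 and 308 TPM in DMSO and 279, 283 and 372 TPM in sAKZ692, and SMARCD2 at 125, 135 and 122 TPM in DMSO and 112, 112 and 121 TPM in sAKZ692. Neither was called (limma adjusted p = 0.703 and 0.157), although both were lower without replicate 3 of sAKZ692 (0.00947 and 0.0303), and SMARCD2 also after median-ratio scaling (0.0182). The ratio of SMARCD1 to SMARCD3 was 9.97 ± 1.63 with DMSO and 4.65 ± 0.954 with sAKZ692 (SD, n = 3). The core subunits SMARCB1 and SMARCE1 were at 98.1 ± 5.66 and 90.1 ± 17.4 TPM and at 308 ± 16.4 and 265 ± 34.00 TPM and did not pass, nor did the ISWI ATPase SMARCA1 (47.3 ± 1.22 and 54.4 ± 1.12 TPM), SMARCAD1 or SMARCAL1. Without replicate 3 of sAKZ692, SMARCE1 was called lower and SMARCA1 higher (limma adjusted p = 0.00131 and 0.02). SMARCE1 was called lower after median-ratio scaling too (limma adjusted p = 0.0264).

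The neuronal form of the complex is known to hold ACTL6B in place of ACTL6A, and to lack PHF10. ACTL6B rose from 42.9 ± 3.23 TPM to 56.9 ± 4.83 TPM (SD, n = 3; log2 fold change 0.40, SE 0.09, limma adjusted p = 0.0159) and PHF10 fell from 68.1 ± 1.96 TPM to 53.1 ± 2.38 TPM (SD, n = 3; log2 fold change -0.35, SE 0.07, limma adjusted p = 0.00846). ACTL6A was at 118 ± 7.42 and 94.8 ± 12.3 TPM and did not pass (limma adjusted p = 0.0549). These were the only calls among 14 tested accessory subunits, and that of ACTL6B did not hold when DMSO replicate 1 or 2 was left out, nor after median-ratio scaling (0.0914), where 0 subunits were higher and 6 lower. ACTL6A was 2.76 ± 0.388 times as abundant as ACTL6B with DMSO and 1.67 ± 0.220 times with sAKZ692 (SD, n = 3). Of the 10 SMARC genes in all, 2 were thus higher and 1 lower. After median-ratio scaling 2 were higher and 3 lower, after quantile normalization 2 and 0, and 3 and 4 when replicate 3 of sAKZ692 was left out.

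Among the ARID genes, which share an AT-rich DNA-binding domain, ARID4A, a component of SIN3 deacetylase complexes, was at 9.58, 12.4 and 8.16 TPM in DMSO and 15.6, 20.7 and 15.8 TPM in sAKZ692 (log2 fold change 0.74, SE 0.17, limma adjusted p = 0.0155). It was the only one of 6 tested to be called, and the call was lost without DMSO replicate 1 or 3 (limma adjusted p up to 0.0595) and after quantile normalization (0.0554). ARID2, the defining subunit of the PBAF form of SWI/SNF, was at 20.7, 19.9 and 18.1 TPM in DMSO and 16.8, 18.3 and 25.5 TPM in sAKZ692, and ARID3A at 16.8, 17.00 and 11.2 TPM in DMSO and 15.5, 17.1 and 16.04 TPM in sAKZ692, both with overlapping groups. ARID3B, ARID4B and ARID5A had log2 fold changes between -0.11 and 0.23.

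Of 8 CHD remodelers only CHD6 was called, at 15.03, 14.3 and 12.2 TPM in DMSO and 17.95, 20.04 and 20.01 TPM in sAKZ692 (log2 fold change 0.46, SE 0.11, limma adjusted p = 0.0159), and the call was lost after quantile normalization (0.0985) and without DMSO replicate 2 or 3 or replicate 2 of sAKZ692 (adjusted p up to 0.057). CHD3 and CHD4, the ATPases of the NuRD deacetylase complex, were at 212, 222 and 197 TPM in DMSO and 177, 195 and 218 TPM in sAKZ692, and at 197, 197 and 223 TPM in DMSO and 178, 171 and 271 TPM in sAKZ692. The groups of both overlapped, and CHD4, highest in replicate 3 of sAKZ692, was called lower without it (limma adjusted p = 0.0155). In GENCODE, 43.5% of the 50-base windows of CHD4 also occur in other genes. CHD7 and CHD8, known from neurodevelopmental disorders, were at 52.7, 46.4 and 41.97 TPM in DMSO and 49.8, 52.6 and 35.5 TPM in sAKZ692, and at 73.9, 64.5 and 71.6 TPM in DMSO and 57.8, 67.4 and 56.2 TPM in sAKZ692. CHD8 was called lower after median-ratio scaling only (limma adjusted p = 0.0247). CHD1, CHD1L and CHD2 did not pass. Among 20 tested genes of other remodeling complexes, 2 were higher and 4 lower. Of the alternative NuRD subunits, GATAD2A fell (89.4 ± 4.14 and 69.5 ± 3.03 TPM) and GATAD2B rose (13.8 ± 2.197 and 20.1 ± 2.04 TPM), and the rise of GATAD2B was lost after both scalings (limma adjusted p = 0.0607 and 0.118) and without DMSO replicate 2 or 3. This list had 0 higher and 8 lower genes after median-ratio scaling, and 2 lower without any 1 DMSO library.

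In the wider chromatin lists, PRC1, the Polycomb complex that ubiquitinates H2A, had calls both ways, with 4 of 12 tested genes higher and 3 lower, or 3 and 1 without any 1 DMSO library. CBX6 and CBX8 are alternative subunits that read H3K27me3. CBX6 rose from 24.8 ± 1.07 TPM to 32.6 ± 0.492 TPM (SD, n = 3), and CBX8 (25.97 ± 0.343 and 35.7 ± 2.96 TPM) rose as well. Of 19 bromodomain and heterochromatin readers, 0 were higher and 4 lower. The HP1 genes CBX1 (901 ± 36.2 and 728 ± 5.38 TPM) and CBX3 (361 ± 10.3 and 282 ± 18.98 TPM) fell, as did their partner TRIM28 (685 ± 11.2 and 494 ± 65.8 TPM). Without DMSO replicate 1 or 2, 2 of the readers were lower and CBX1 was not called, and without replicate 3 of sAKZ692 1 was higher and 7 lower. Of 6 tested HMG proteins, which bend or loosen nucleosomal DNA, 0 were higher and 3 lower. HMGB1 fell from 1368 ± 33.1 TPM to 784 ± 122 TPM (log2 fold change -0.81, SE 0.11, limma adjusted p = 0.00223), and so did HMGB2 (568 ± 25.02 and 405 ± 104 TPM) and HMGN1 (595 ± 20.2 and 448 ± 26.8 TPM). The call of HMGB2 was lost without any 1 library except replicate 3 of sAKZ692, where 5 HMG genes were lower, and after quantile normalization HMGB1 alone was lower. After median-ratio scaling the readers had 0 higher and 8 lower.

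**Figure D4:**
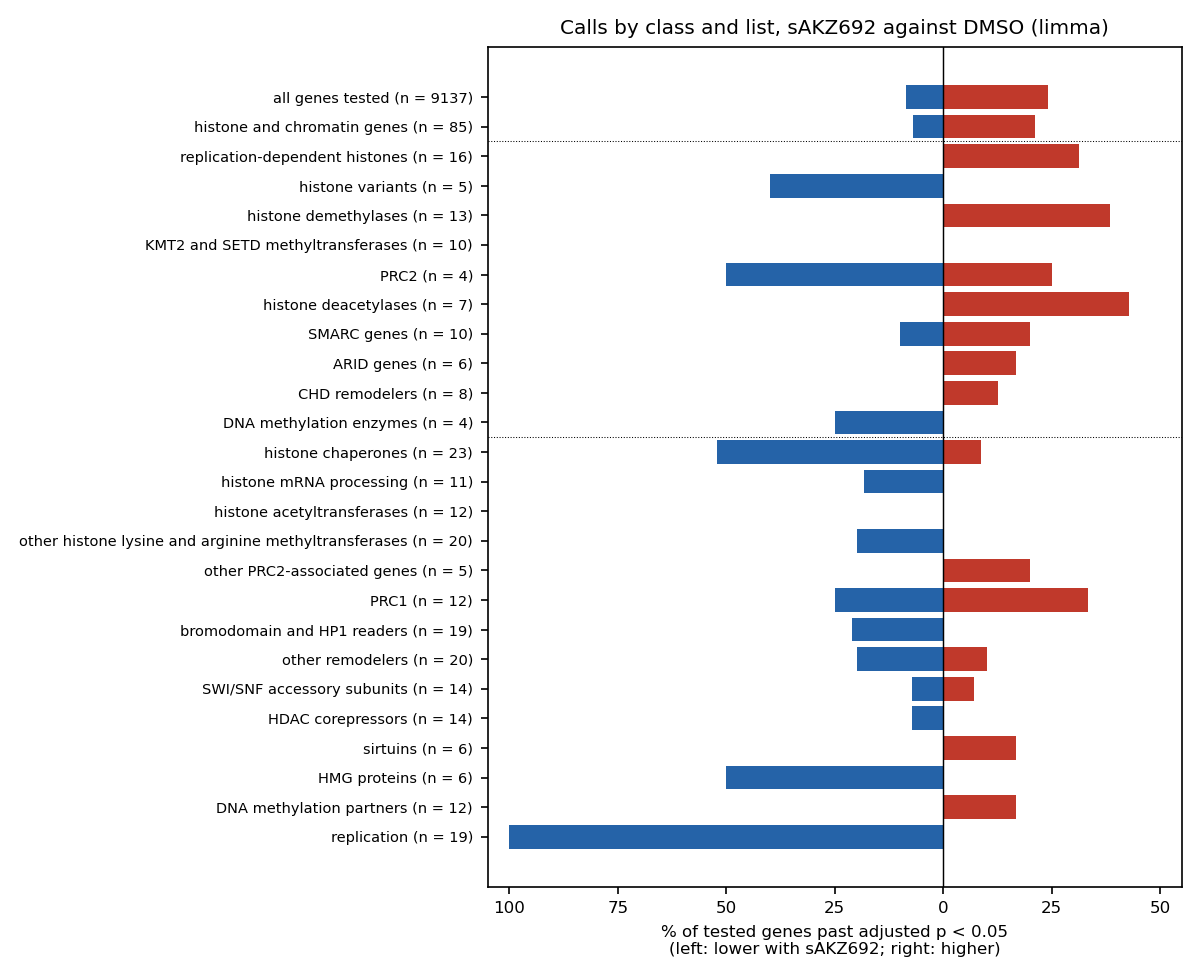
Share of tested genes past a limma adjusted p of 0.05, to the left for genes lower and to the right for genes higher with sAKZ692, for all tested genes, for the histone and chromatin genes and their classes, and for the related lists (n tested in brackets). The chromatin genes as a whole resemble all tested genes (28.2% against 32.6% called), while histone chaperones, HMG proteins and replication genes lie mainly on the lower side.

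Promoter windows were matched for 84 of the 97 genes. The E2F motif occurred in 8 of them (9.52%), against 2.11% of the 7155 windows matched to tested genes and 1.148% of all 35116 RefSeq windows of this length. It was found in 6 of 23 replication-dependent histone windows, and in the EZH2 and DNMT1 windows among the other 61. Neighbouring H2A and H2B genes on opposite strands share much of a window, as HIST1H2AG does with HIST1H2BJ and HIST1H2AI with HIST1H2BL. With both strands searched, the same site then counts for both genes. The histone windows are thus not all separate loci, for the motifs below as well. CCAAT occurred in 52.4% of the matched windows against 35.96% of tested-gene windows and 34.6% of all windows, and in 19 of the 23 histone windows. The octamer ATTTGCAT, an element of H2B promoters, occurred in 7 windows (8.33%), against 1.20% of tested-gene windows and 1.77% of all windows. Histone genes held 6 of the 7, H2A genes as well as H2B genes. TTTGAA occurred in 10 of the 84 windows (11.9%), against 9.95% of tested-gene windows and 15.2% of all windows. The antioxidant response element core TGACNNNGC occurred in 8 of the 84 windows (9.52%) against 14.5% of tested-gene windows and 13.3% of all windows. By call, the E2F motif occurred in 2 of the 6 lower genes and 0 of the 16 matched higher genes, TTTGAA in 1 and 3, CCAAT in 4 and 7, and the response element core in 0 and 1, the last in KDM4C. Of the 52 matched genes that did not pass, the E2F motif occurred in 4, TTTGAA in 2, CCAAT in 26 and the response element core in 4. The 6 histone windows with the E2F motif belonged to genes that did not pass or were not tested. EED, H2AFZ, H2AFV and SMARCA4, lower like EZH2 and DNMT1, held 0 E2F matches. Letters under N may overlap another motif. These matches describe letters in a window and were not tested.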

How the data were processed

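RNA came from whole cells, and single-end 50-base reads were taken on a BGISEQ-500, per the labels. The tool kallisto is named in the submitters' processing notes, without its version, the annotation, the build or whether strand was used, each not given in the sources used here. What the authors deposited is 1 table of TPM with 1 column per library, in which the listed genes summed to between 61.2% and 65.9% of the full TPM scale. The labels give 1 planned depth for all libraries, but TPM keeps no read counts, so the realised depth is unknown and no counting interval was computed. The labels do not say whether replicates were separate cultures, so p-values measure only the spread between these libraries.

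The 9137 genes averaging 1 TPM or more were tested on log2(TPM + 1), which understates the change of low genes, with limma 3.58.1 (mean-variance trend) in R 4.3.3, sAKZ692 against DMSO, 3 libraries each. Benjamini-Hochberg adjustment ran over all of them, at a threshold of 0.05, two-sided. The step was tested on simulated data. Alternatives were pseudocounts of 0.1 and 0.5, no filter, a mean of at least 5 TPM, median-ratio scaling, quantile normalization, a replicate block, and each library left out. The genes, lists and the rule for named genes (in each class the largest called changes and the most abundant genes, genes fixed by name, and the smallest adjusted p in each related list) were chosen with earlier results of these data known. HIST3H2BB, ARID5B, HIST2H2AC, HIST1H3F, H2AFY and ACTL6A were singled out after their values were seen. Motifs and shared windows came from RefSeq (GRCh38.p14) and GENCODE release 29 sequences. A few genes of the related lists are not reported here.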

Additional observations from a re-analysis of the deposited data

How the results depend on the processing

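Pseudocounts of 0.1 and 0.5 changed no call of a histone or chromatin gene. With no filter, 3 demethylases and 2 ARID genes were higher, and with a mean of at least 5 TPM 1 replication-dependent histone gene was higher, since 3 were then tested. After median-ratio scaling 1369 of all genes were higher and 1478 lower; 13 chromatin genes were lower, 3 demethylases higher, and 1 pseudogene, 1 KMT2 or SETD gene, 3 SMARC genes and 1 CHD gene lower. After quantile normalization 1073 of all genes were higher and 1188 lower; 9 chromatin genes, 3 replication-dependent histones, 1 demethylase, 0 ARID and 0 CHD genes were higher, and 1 pseudogene, 1 KMT2 or SETD gene and 0 SMARC genes lower. Leaving out 1 library gave 1213 to 3163 higher and 404 to 1321 lower genes, and 10 to 20 higher and 5 to 19 lower chromatin genes. By class, the ranges were 3 to 5 higher and 0 to 2 lower replication-dependent histones, 2 to 5 lower variants, 0 to 1 lower pseudogene, 2 to 5 higher and 0 to 2 lower demethylases, 0 to 1 lower KMT2 or SETD gene, 0 to 4 lower SMARC genes, 0 to 1 higher ARID gene, and 0 to 1 higher and 0 to 1 lower CHD gene. The highest counts of lower genes came without replicate 3 of sAKZ692. VIM, not called with all libraries (log2 fold change 0.13), ranged from -0.30, called lower without that library, to 0.38 without replicate 2 of sAKZ692. The causes were not tested. Whether the replicate numbers pair the libraries could not be decided. Deviations from the group means of same-numbered libraries correlated at 0.06, -0.02 and 0.04 across genes. DMSO replicates 1 and 3 correlated best with their own number, and DMSO replicate 2 with another. Correlations this small, with 3 libraries per group, do not settle it. With the replicate block, 15 chromatin genes were higher and 5 lower, 3 replication-dependent histones were higher and 0 SMARC genes lower. A gene whose sign changed without being called either way was counted as the same.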
